A study of Mus musculus and Rattus norvegicus with 14 samples.

Results

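The 39 genes described here encode structural proteins of the cardiac sarcomere, the contractile unit of heart muscle, and proteins that build it, anchor it or turn it over. They form a list of gene symbols, which was matched to a mouse heart expression table of 54532 genes, and all 39 were found there. Each of the 39 also passed the filter on low values and so stands among the 13000 genes tested. By role they comprised 5 genes of the thick filament, 8 of the thin filament, 13 of the Z-disc, 5 of the M-band together with the MuRF ubiquitin ligases, 6 of the desmin network, costamere and membrane link, and 2 myosin chaperones. The list is wider than sarcomere and Z-disc structure in the strict sense, since Mylk3 is a kinase, Trim54, Trim55 and Trim63 are ubiquitin ligases, and Dmd, Sgcd and Vcl act at the cell membrane.

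The study sequenced messenger RNA from mouse hearts in 4 groups of 3 libraries (Sham, Model, SQ-3, LQ-40) to assess LQ-40 and SQ-3, compounds known here only by these code names, in myocardial fibrosis. All 4 groups are labelled as heart tissue, and that group name is the only treatment given for each. The labels used here state no strain, sex, age, model procedure, dose, route or treatment time, nor whether hearts of the compound groups also received the model procedure. Separate animals within a group are not stated either. The p-values therefore rest on a between-sample spread that may be technical alone.

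In a sarcomere, myosin thick filaments slide past actin thin filaments when calcium binds the troponin complex. Thin filaments are anchored at the Z-disc by alpha-actinin and its partners, thick filaments are held in register at the M-band, and titin spans from the Z-disc to the M-band. Desmin filaments and costameres tie the myofibrils to each other and to the membrane. In the heart these transcripts come mainly from cardiomyocytes, while several Z-disc and adhesion genes, such as Pdlim1, Vcl, Tpm1 and Flnc, are also active in other cell types.

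Because most members moved together between groups, the stretch of DNA around their start sites was read for short motifs known from muscle promoters. The RefSeq promoter table (build GRCm38.p6) gave a window of 300 bases, 250 before and 50 after the start, for 35 of the 39 members; Fhod3, Myom2, Nexn and Trim55 had none. For 10 members with several start sites the one nearest the gene's 5′ end was used. Some windows are still far from the 5′ end of the deposited gene span. That of Myl2 lies far outside the span, and those of Myl3, Myom1, Smyd1, Sgcd and Mylk3 lie far inside it. The window of Tnni3 (4522479 to 4522778) also lies inside the span, whose 5′ end is at 4524229. Motifs were matched on both strands and may overlap. The letters CATTCC, the core of the MCAT element bound by TEAD factors, were found in 37.1% of the 35 member promoters and in 14.7% of all 32807 promoters in that table. The CArG box, the binding motif of serum response factor, was found in 17.1% of members and 1.63% of all, and the MEF2 site in 17.1% and 3.19%. The TATA motif TATAAA was found in 17.1% and 13.6%, the GATA motif AGATAA in 17.1% and 11.2%, and the E-box CANNTG in 80.0% and 72.3%. In all, 20 of the 35 held an MCAT element, a CArG box or a MEF2 site. These matches describe letters in a window and are not measured sites.

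The 5 promoters shown here, chosen with the values known, belong to members at both ends of the Model against Sham comparison. Fhl2 and Tnni3 had the largest falls, Myl3 is an abundant light chain that fell, and Pdlim3 and Pdlim1 were the members that rose. Capitals mark matches to the TATA motif, the MCAT core, the CArG box and the MEF2 site on either strand, and each sequence runs 5′ to 3′ on the strand of its gene. Fhl2 lies at chr1:43196712-43197011 (minus strand), Tnni3 at chr7:4522479-4522778 (minus), Myl3 at chr9:110763428-110763727 (plus), Pdlim3 at chr8:45885237-45885536 (plus) and Pdlim1 at chr19:40271567-40271866 (minus), all on GRCm38.p6.
Fhl2: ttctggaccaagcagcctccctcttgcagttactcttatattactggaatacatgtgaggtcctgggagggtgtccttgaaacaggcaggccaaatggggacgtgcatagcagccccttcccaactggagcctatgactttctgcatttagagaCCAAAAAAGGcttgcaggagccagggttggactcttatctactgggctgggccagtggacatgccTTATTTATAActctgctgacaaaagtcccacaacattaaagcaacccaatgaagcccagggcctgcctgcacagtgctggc
Tnni3: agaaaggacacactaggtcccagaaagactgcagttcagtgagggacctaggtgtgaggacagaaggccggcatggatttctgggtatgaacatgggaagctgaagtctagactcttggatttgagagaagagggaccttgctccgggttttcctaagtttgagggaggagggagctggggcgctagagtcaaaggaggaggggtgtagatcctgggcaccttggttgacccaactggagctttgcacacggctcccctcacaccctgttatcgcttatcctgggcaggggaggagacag
Myl3: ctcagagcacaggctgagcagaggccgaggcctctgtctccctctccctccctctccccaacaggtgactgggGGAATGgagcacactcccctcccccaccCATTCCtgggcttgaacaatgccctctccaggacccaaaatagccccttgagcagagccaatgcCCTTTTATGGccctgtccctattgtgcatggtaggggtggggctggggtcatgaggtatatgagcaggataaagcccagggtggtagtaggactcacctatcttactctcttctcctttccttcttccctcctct
Pdlim3: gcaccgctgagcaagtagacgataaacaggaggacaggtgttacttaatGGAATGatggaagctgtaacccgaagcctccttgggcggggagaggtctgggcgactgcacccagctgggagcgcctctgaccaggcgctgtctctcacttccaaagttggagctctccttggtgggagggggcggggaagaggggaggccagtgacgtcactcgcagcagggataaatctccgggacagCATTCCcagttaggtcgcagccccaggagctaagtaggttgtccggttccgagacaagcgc
Pdlim1: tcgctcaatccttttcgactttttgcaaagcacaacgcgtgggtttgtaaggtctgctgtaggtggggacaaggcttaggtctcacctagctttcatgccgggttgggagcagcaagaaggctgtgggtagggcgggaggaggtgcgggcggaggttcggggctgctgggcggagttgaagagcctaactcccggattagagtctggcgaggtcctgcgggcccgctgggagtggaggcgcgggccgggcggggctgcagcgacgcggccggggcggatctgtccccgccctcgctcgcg
The Fhl2 window held a CArG box and, nearer the start, a TATA motif that overlaps a MEF2 site. The Myl3 window held an MCAT core on each strand and a CArG box. Pdlim3, which rose, also held 2 MCAT cores, while the windows of Tnni3, with the largest fall, and Pdlim1, which rose, held none of the 4 motifs. Among members with a window, the MCAT core was found in 9 of the 26 that were lower in Model hearts (34.6%). It was found in 1 of the 2 that were higher and in 3 of the 7 that were not called (42.9%). The CArG box was found in 4 lower, 0 higher and 2 uncalled members, and the MEF2 site likewise. These 3 motifs were thus no more frequent in the members that fell than in those not called, of which only 7 had a window. The GATA motif was found in 23.1% of lower and 0.0% of uncalled members, and the E-box in 84.6% and 71.4%. TATAAA was found in 15.4% and 28.6%. None of these differences was tested.

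Each mouse library had between 13085370 and 16698987 reads in genes, of which single members took 224 (Pdlim3) to 87239 (Tpm1) reads per library. Reads of the 39 members made up 4.74 ± 0.24% of a Sham library, 3.09 ± 0.09% of a Model library, 3.19 ± 0.62% of an LQ-40 library and 3.59 ± 0.05% of an SQ-3 library (SD, n = 3 each). Mitochondrial genes took 19.9 ± 4.7%, 13.4 ± 2.4%, 15.9 ± 5.1% and 17.0 ± 2.7% of reads in the same groups, and their part in the results was not tested. In bulk tissue, fewer cells of a type and less RNA per cell cannot be told apart. The summed level of 20 cardiomyocyte genes outside the myofibril was 13905 to 17540 scaled FPKM in Sham, 6381 to 7932 in Model, 5862 to 13157 in LQ-40 and 9178 to 10862 in SQ-3 libraries. The summed level of 10 fibroblast genes was 587 to 707, 3667 to 3915, 1296 to 4438 and 2032 to 2683. Macrophage genes summed to 397 to 596 in Sham and 815 to 1199 in Model libraries. Skeletal muscle markers, of which 2 of 11 passed the filter and Tnnc2 was listed at 0 in every library, summed to 1.27 to 2.31 in Sham and 1.91 to 21.4 in Model libraries.

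Scaled FPKM are reads scaled to gene length, library size and library composition, so levels of different genes can be set side by side. In Sham hearts Myl2, the ventricular regulatory light chain, stood highest at 2487 ± 557 scaled FPKM, followed by the ventricular essential light chain Myl3 at 2191 ± 303, the calcium sensor troponin C, Tnnc1, at 2106 ± 254, and the inhibitory troponin Tnni3 at 1806 ± 293 (SD, n = 3). The libraries of neighbours among these 4 overlapped. Fhl2, a LIM protein of the Z-disc and I-band, followed at 1147 ± 85.1 and the thin filament coil Tpm1 at 973 ± 88.2. At the other end stood the dystrophin gene Dmd at 7.36 ± 1.45, the sarcoglycan Sgcd at 4.09 ± 0.510 and the LIM protein Pdlim3 at 3.59 ± 0.434. The order depends on the deposited gene lengths, which counted 116825 bases for Ttn, 7752 for Tnnt2 and 6485 for Tpm1.

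In Model hearts 28 of the 39 members were lower than in Sham hearts, 2 were higher and 9 did not pass the test (limma, adjusted p under 0.05 over 13000 genes). Over all genes tested, 38.9% were called, 18.0% lower and 20.9% higher. The median log2 change was -0.82 over the members and 0.03 over all genes tested. Libraries of both groups did not overlap for 34 members, 32 with all Model libraries below all Sham libraries and 2 with all above; over all genes this was seen for 25.7% and 29.8%. Falls were found in all 5 thick filament genes, all 8 thin filament genes and both chaperones, in 4 of 5 M-band and ubiquitin ligase genes, in 6 of 13 Z-disc genes and in 3 of 6 genes of the desmin and membrane group. Both rises were in the Z-disc group.

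**Figure D1:**
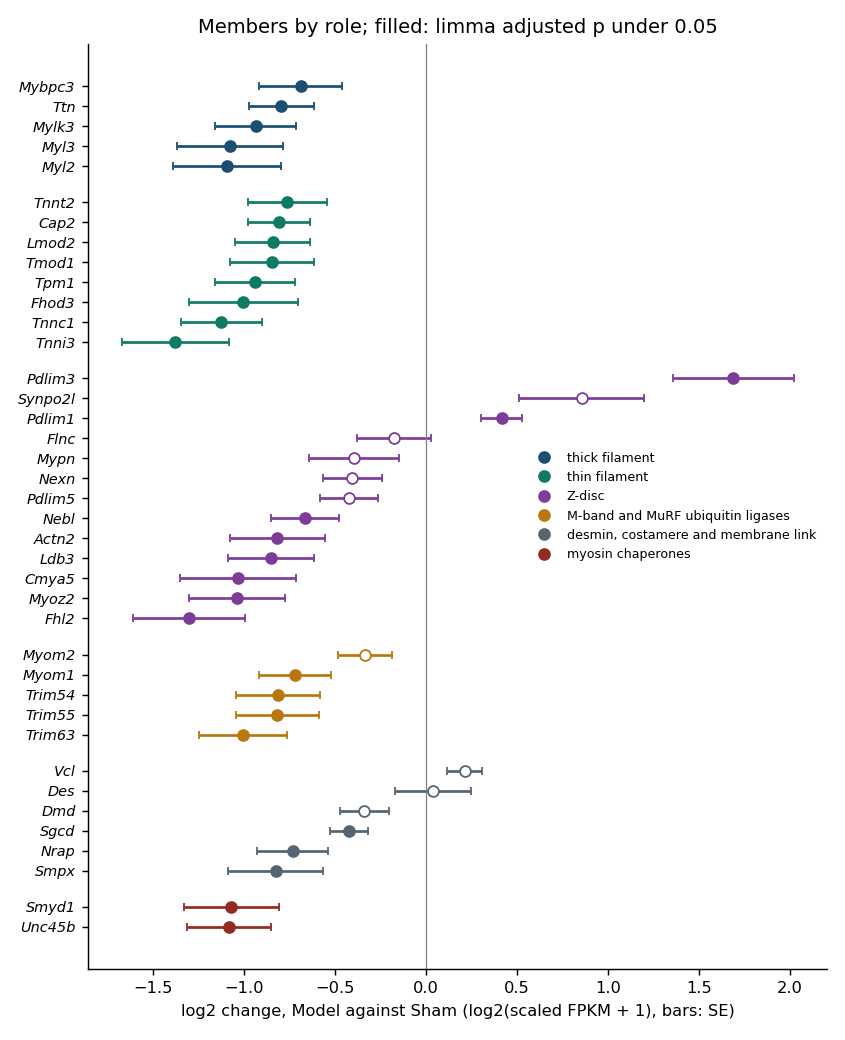
Log2 change of each of the 39 members in Model against Sham hearts, on the log2(scaled FPKM + 1) scale, grouped by role; points are estimates, bars are standard errors, and filled points passed the limma test at an adjusted p under 0.05. All thick filament, thin filament and chaperone genes sit left of 0, while Pdlim3 (1.69) and Pdlim1 (0.41) are the filled points right of it.

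All 5 thick filament genes fell. Myl2, which tunes the myosin lever arm of ventricular muscle (chromosome 5, 122100951 to 122113472, mm10), measured 3096, 2003 and 2363 scaled FPKM in Sham libraries 1 to 3 and 924, 1349 and 1205 in Model libraries. Every Model library lay below every Sham library, a 2.14-fold lower level (log2 -1.09, SE 0.30, limma adjusted p = 0.0155). Myl3, the light chain that stiffens the same lever arm (chromosome 9, 110741861 to 110769798), measured 2499, 1893 and 2181 in Sham and 911, 1220.3 and 986 in Model libraries, again without overlap (log2 -1.08, SE 0.29, adjusted p = 0.0147). Ttn, the giant spring protein titin (chromosome 2, 76703980 to 76982547), measured 21.5, 27.1 and 24.1 in Sham and 14.1, 12.3 and 14.1 in Model libraries, and the groups were apart by more than either spread (log2 -0.80, SE 0.18, adjusted p = 0.00702). Mylk3, the cardiac kinase that phosphorylates Myl2 (chromosome 8, 85324303 to 85386345), measured 106, 110.0 and 77.3 in Sham and 50.3, 51.6 and 48.1 in Model libraries (log2 -0.94, SE 0.22, adjusted p = 0.00850). Its Model libraries lay within 4 FPKM of each other. Mybpc3, the myosin-binding protein that restrains cross-bridges, fell from 927 ± 62.0 to 574 ± 30.8 (SD, n = 3; log2 -0.69, adjusted p = 0.0346). Ttn and Mylk3 kept their calls in all 20 alternatives. The calls of Myl2 and Myl3 ended without Model replicate 1 or Sham replicate 1 (adjusted p 0.0535 to 0.0655) and that of Mybpc3 without any of the 6 libraries compared (0.0631 to 0.0930). With quantile normalization the log2 changes shrank to -0.38 for Myl2, -0.38 for Myl3 and -0.07 for Mybpc3.

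The thin filament held the largest fall among the members. Tnni3, which blocks the actin and myosin interaction at low calcium (chromosome 7, 4518305 to 4524229), measured 2143, 1663 and 1612 scaled FPKM in Sham and 579, 835 and 674 in Model libraries. The highest Model library lay far under the lowest Sham library, and the gene was 2.60-fold lower (log2 -1.38, SE 0.29, adjusted p = 0.00562). Tnnc1, the calcium-binding troponin (chromosome 14, 31208312 to 31211729), measured 2394, 1914 and 2009.7 in Sham and 821, 1075 and 1000.3 in Model libraries without overlap (log2 -1.13, SE 0.22, adjusted p = 0.00409). Cap2, which recycles actin monomers (chromosome 13, 46501848 to 46650281), was even across Sham libraries at 48.4, 48.2 and 47.1 and lower in all Model libraries at 25.7, 25.7 and 29.4 (log2 -0.81, SE 0.17, adjusted p = 0.00529). Tpm1, the tropomyosin that covers the myosin sites of actin (chromosome 9, 67022590 to 67049406), measured 1048, 996 and 876 in Sham and 450.3, 538 and 529.6 in Model libraries (log2 -0.94, SE 0.22, adjusted p = 0.00827). The remaining 4 fell as well. Fhod3, a formin of cardiac actin assembly, went from 64.3 ± 12.9 to 31.2 ± 2.47 (adjusted p = 0.0220), and Tnnt2, which fixes troponin to tropomyosin, from 720.5 ± 114 to 420.1 ± 14.8 (adjusted p = 0.0184). The pointed-end cap Tmod1 went from 52.2 ± 10.6 to 28.3 ± 0.916 (adjusted p = 0.0155) and Lmod2, which elongates thin filaments, from 405 ± 11.1 to 227 ± 37.2 (adjusted p = 0.00972). Tnni3 and Cap2 kept their calls in all alternatives, and Tnnc1, Tpm1 and Lmod2 whichever library was left out, although Tnnc1 lost its call with no filter on low values (adjusted p = 0.0658) and Tpm1 and Lmod2 with quantile normalization (0.0644 and 0.203). The calls of Fhod3, Tnnt2 and Tmod1 ended without Model replicate 1 (adjusted p 0.0682, 0.0583 and 0.0513), without Sham replicate 1 (Tnnt2 0.0668, Tmod1 0.0625), without Sham replicate 2 (Fhod3 0.0772, Tnnt2 0.0530) or without Model replicate 2 (Fhod3 0.0539). With quantile normalization the log2 changes shrank to -0.62 for Tnni3, -0.41 for Tnnc1, -0.35 for Tpm1, -0.33 for Lmod2 and -0.29 for Tnnt2.

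Z-disc genes were split by the test: 6 fell, 2 rose and 5 did not pass. Of the 13 estimates, 10 were below 0 and 3 above. Fhl2, a LIM-only adaptor that binds titin and signalling proteins (chromosome 1, 43123074 to 43196984), measured 1159.5, 1225 and 1056 scaled FPKM in Sham and 385, 545 and 474 in Model libraries. Model levels were all under the Sham range, 2.47-fold lower (log2 -1.30, SE 0.31, adjusted p = 0.00848). Myoz2, which tethers calcineurin to alpha-actinin (chromosome 3, 123006206 to 123035015), measured 389, 243 and 275 in Sham and 121, 165 and 149 in Model libraries (log2 -1.04, SE 0.26, adjusted p = 0.0114). The groups did not overlap, although Sham replicate 1 stood well above the other Sham libraries. The muscle alpha-actinin Actn2, the main crosslinker of the Z-disc, fell from 545 ± 122 to 304 ± 36.4 (adjusted p = 0.0295), its PDZ and LIM partner Ldb3 from 164 ± 3.13 to 90.7 ± 7.80 (adjusted p = 0.0166), and the nebulin relative Nebl from 28.3 ± 4.30 to 17.4 ± 2.29 (adjusted p = 0.0175). Cmya5, a large protein at the Z-disc and costamere, fell from 59.6 ± 8.20 to 28.6 ± 4.12 (adjusted p = 0.0252). Fhl2 and Myoz2 kept their calls in all alternatives. Those of Actn2, Cmya5, Nebl and Ldb3 ended in leave-one-out fits: without Model replicate 1 for Actn2, Cmya5 and Nebl (adjusted p 0.0872, 0.0870 and 0.0684), without Model replicate 2 for Actn2, Cmya5 and Ldb3 (0.0811, 0.0530 and 0.0532), without Sham replicate 2 for Actn2, Cmya5 and Nebl (0.0879, 0.0680 and 0.0642) and without Sham replicate 3 for Actn2 and Cmya5 (0.0905 and 0.0683). With quantile normalization the log2 changes shrank to -0.71 for Fhl2, -0.63 for Myoz2 and -0.36 for Actn2.

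Both rises were in the PDZ and LIM domain family, adaptors that bind alpha-actinin. The family did not rise as a whole, since Ldb3, which fell, also belongs to it. Pdlim3, also named ALP (chromosome 8, 45885461 to 45919548), measured 4.07, 3.23 and 3.46 scaled FPKM in Sham and 13.8, 15.0 and 12.5 in Model libraries. The lowest Model library was above 3 times the highest Sham library, and the gene rose 3.22-fold (log2 1.69, SE 0.33, adjusted p = 0.00403), a call kept in all alternatives. Pdlim1, also named CLP36 (chromosome 19, 40221173 to 40271842), measured 14.8, 12.9 and 14.3 in Sham and 17.8, 20.2 and 19.0 in Model libraries, a smaller rise without overlap (log2 0.41, SE 0.11, adjusted p = 0.0148). That call ended without Model replicate 2 (adjusted p = 0.0522) or Sham replicate 2 (0.0535). Another relative, Pdlim5, measured 119, 126 and 97.4 in Sham and 73.8, 84.3 and 96.2 in Model libraries. Its groups did not overlap, with Model lower, but it missed the threshold (log2 -0.42, adjusted p = 0.0526). It passed with FPKM as deposited (0.0369), with a mean of at least 5 FPKM (0.0483) and without LQ-40 replicate 1 (0.0484), SQ-3 replicate 2 (0.0400) or Sham replicate 3 (0.0348). The summed fibroblast genes were higher in every Model library than in any Sham library. Skeletal muscle markers spanned 1.91 to 21.4 in Model and 1.27 to 2.31 in Sham libraries, so the lowest Model library lay inside the Sham range. Their part in the Pdlim1 and Pdlim3 results was not tested.

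Synpo2l, an actin-bundling Z-disc protein, had the largest standard error among the members. It measured 27.4, 29.1 and 46.1 in Sham and 75.9, 38.3 and 77.9 in Model libraries. Model replicates 1 and 3 stood above every Sham library while replicate 2 lay inside their range, and the difference did not pass (log2 0.85, SE 0.34, adjusted p = 0.0700; 0.0237 without Model replicate 2 and 0.0467 without Sham replicate 3). Nexn, an actin-binding protein of the Z-disc, averaged 121 ± 10.9 in Sham and 91.5 ± 13.5 in Model hearts (adjusted p = 0.0659; 0.0466 without LQ-40 replicate 1 and 0.0485 with FPKM as deposited). Mypn, which links titin to alpha-actinin, averaged 21.1 ± 4.27 and 15.6 ± 1.11 (adjusted p = 0.224), and the filamin Flnc 49.6 ± 12.9 and 42.9 ± 5.87 (adjusted p = 0.517). Mypn and Nexn libraries did not overlap between groups, and Flnc libraries did.

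**Figure D2:**
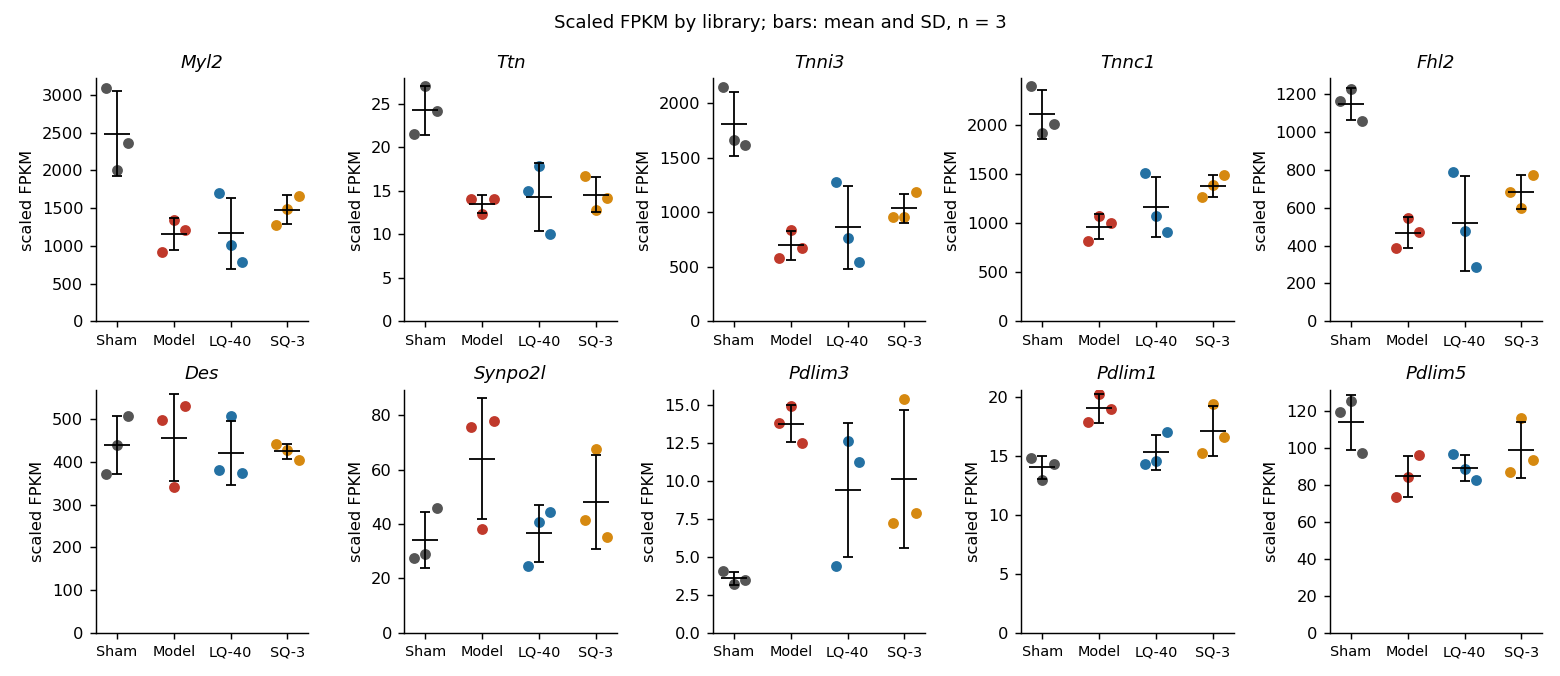
Scaled FPKM of 10 members in each of the 12 libraries, with the mean and SD of each group (n = 3) as bars. Myl2, Ttn, Tnni3, Tnnc1 and Fhl2 lie lower in Model than in Sham libraries, Pdlim3 and Pdlim1 lie higher, and Des overlaps in all 4 groups.

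M-band genes and the MuRF ubiquitin ligases were all lower in Model hearts by estimate, and with 1 exception they passed the test. Trim63, or MuRF1, which marks myofibrillar proteins for degradation (chromosome 4, 134315120 to 134329629), measured 68.0, 65.3 and 72.5 scaled FPKM in Sham and 25.8, 36.5 and 40.2 in Model libraries. Sham values were tight and all Model values were lower (log2 -1.01, SE 0.24, adjusted p = 0.00897). Its relative Trim55, or MuRF2 (chromosome 3, 19644474 to 19692421), measured 45.8, 34.3 and 34.2 in Sham and 18.8, 23.8 and 20.7 in Model libraries (log2 -0.82, SE 0.23, adjusted p = 0.0164). Trim54, or MuRF3 (chromosome 5, 31116712 to 31137630), measured 96.2, 66.1 and 73.3 in Sham and 49.4, 41.7 and 40.2 in Model libraries (log2 -0.82, SE 0.23, adjusted p = 0.0183). All 3 ligases were thus without overlap between the groups. Myom1, the myomesin that bridges thick filaments (chromosome 17, 71002633 to 71126856), measured 124, 143 and 131 in Sham and 80.5, 74.5 and 85.4 in Model libraries (log2 -0.72, SE 0.20, adjusted p = 0.0165). Its relative Myom2, the exception, measured 100.5, 90.2 and 75.9 in Sham and 73.8, 59.3 and 77.2 in Model libraries. Model replicate 3 lay inside the Sham range of Myom2, and the difference did not pass (log2 -0.34, adjusted p = 0.0937). Trim63 kept its call in all alternatives. Trim55 lost it without Model replicate 1 (adjusted p = 0.0615) or Sham replicate 1 (0.0645), Trim54 without Model replicate 2 (0.0506), Model replicate 3 (0.0592) or Sham replicate 1 (0.0715), and Myom1 without Model replicate 2 (0.0516) or Sham replicate 2 (0.0534).

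The desmin, costamere and membrane group was split. Sgcd, the delta-sarcoglycan of the dystrophin complex (chromosome 11, 46896253 to 47988969), measured 4.40, 4.38 and 3.50 scaled FPKM in Sham and 2.62, 2.53 and 3.23 in Model libraries. The groups did not overlap, though Sham replicate 3 came close to Model replicate 3 (log2 -0.43, SE 0.10, adjusted p = 0.00958). Nrap, which joins myofibrils to the intercalated disc (chromosome 19, 56320035 to 56390037), measured 127, 138 and 177 in Sham and 92.5, 71.3 and 100.3 in Model libraries (log2 -0.73, SE 0.19, adjusted p = 0.0136). Smpx, a small costamere protein (chromosome X, 157698910 to 157752591), measured 162, 124 and 107 in Sham and 57.6, 78.5 and 83.4 in Model libraries (log2 -0.83, SE 0.26, adjusted p = 0.0283). Both fell without overlap of libraries. Dystrophin, Dmd (chromosome X, 82948870 to 85206141), measured 6.51, 9.04 and 6.53 in Sham and 5.08, 5.29 and 6.31 in Model libraries. Its groups did not overlap, but the difference missed the threshold (log2 -0.34, adjusted p = 0.0631; 0.0428 with FPKM as deposited and 0.0490 with quantile normalization). Desmin itself, Des, the intermediate filament that links Z-discs, measured 372, 441 and 508 in Sham and 498, 342 and 531 in Model libraries. Its groups overlapped throughout (log2 0.04, 95% interval -0.42 to 0.50, adjusted p = 0.898), and the sign of the estimate turned with the scaling and with the library left out. Vcl, the adhesion protein vinculin, measured 13.0, 16.0 and 13.4 in Sham and 17.2, 15.7 and 16.5 in Model libraries, with overlap (log2 0.21, adjusted p = 0.111; 0.0445 without Sham replicate 2). Sgcd kept its call in the 19 alternatives that tested it. Nrap lost it without Model replicate 2 (0.0523), and Smpx without Model replicate 1 (0.110), Sham replicate 1 (0.104) or Sham replicate 2 (0.0587).

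Both myosin chaperones fell. Unc45b, which folds the myosin head (chromosome 11, 82910550 to 82943403), measured 52.6, 57.3 and 53.3 scaled FPKM in Sham and 24.4, 23.9 and 27.2 in Model libraries. Both groups were tight and far apart (log2 -1.08, SE 0.23, adjusted p = 0.00531). Its partner Smyd1, a muscle methyltransferase that works with Unc45b in thick filament assembly (chromosome 6, 71213940 to 71322233), measured 177, 145 and 124 in Sham and 65.8, 73.0 and 69.9 in Model libraries (log2 -1.07, SE 0.26, adjusted p = 0.00946). Model values of Smyd1 varied little and all lay under the Sham range. Both calls held in all alternatives.

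Among the 30 calls, 11 were kept in all alternatives that tested them (Ttn, Mylk3, Tnni3, Cap2, Fhl2, Myoz2, Pdlim3, Trim63, Sgcd, Unc45b and Smyd1) and 19 were lost in at least 1. Quantile normalization ended 10 of the calls (adjusted p 0.0644 to 0.799): Actn2, Ldb3, Lmod2, Mybpc3, Myl2, Myl3, Myom1, Nrap, Tnnt2 and Tpm1. Dropping the filter on low values ended 9 (0.0522 to 0.131): Actn2, Cmya5, Fhod3, Mybpc3, Myl2, Myl3, Smpx, Tnnc1 and Tnnt2. Without Model replicate 1 the calls numbered 19, with 17 lower and 2 higher. No source used here gives the strand setting of the counts, and genes that overlap a member can share its reads. Of the 25 members that overlap another gene, 5 overlap one at a mean of at least 5 scaled FPKM and are uncertain to that extent: Myom1 (Myl12a, up to 43.3), Smyd1 (Krcc1, up to 28.8), Tnnc1 (Nisch, up to 20.4), Fhl2 (Gm8210, up to 12.3) and Vcl (Ap3m1, up to 7.14).

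Other myofibril genes outside the 39 were read from a list of 48, of which 40 were tested. In Model hearts 18 were lower, 5 were higher and 17 did not pass, with a median log2 change of -0.55. Tcap, or telethonin, which caps titin at the Z-disc, measured 2305, 1751 and 1665 scaled FPKM in Sham and 225, 305 and 161 in Model libraries (log2 -3.08, SE 0.35, adjusted p = 0.000319). No member fell as far as this titin cap. Lmod3, a leiomodin relative of Lmod2, fell from 48.8 ± 4.10 to 24.3 ± 2.95 (adjusted p = 0.00237) and the kelch protein Klhl41 from 34.7 ± 2.54 to 20.8 ± 2.66 (adjusted p = 0.00269). On the side of the rises, the focal adhesion protein Zyx went from 11.6 ± 2.44 to 25.0 ± 0.673 (adjusted p = 0.000904) and Xirp2, a repeat protein of cell junctions, from 43.0 ± 10.8 to 102 ± 28.8 (adjusted p = 0.0161; 0.0622 without Model replicate 3 and 0.0625 without Sham replicate 1). Tpm2, a tropomyosin, also rose (adjusted p = 0.0281), a call that ended without Model replicate 1 or 3 or Sham replicate 2 (0.0577 to 0.0964). So did Xirp1, a relative of Xirp2 (adjusted p = 0.0333), until Model replicate 1 or 3 or any Sham library was left out (0.0661 to 0.133).

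Cardiomyocyte genes outside the myofibril moved beside the members. Of 20 such genes 12 were lower, 1 was higher and 7 did not pass in Model hearts, with a median log2 change of -0.94. All 10 fibroblast genes were higher (median 1.99), as were 6 of 10 macrophage genes, with 1 lower. Within each library, the log2 level of every member was also set against the median of the 20 cardiomyocyte genes, with the Sham mean at 0. On that scale the Model median over the members was 0.10, with 26 members above 0 and 13 below, 15 above and 11 below in all 3 Model libraries. Pdlim3 was highest at 2.60 ± 0.20, then Synpo2l at 1.77 ± 0.66, Pdlim1 at 1.33 ± 0.09, Vcl at 1.12 ± 0.21 and Des at 0.95 ± 0.43 (SD, n = 3). Tnni3 was lowest at -0.47 ± 0.16, with Fhl2 at -0.39 ± 0.12 (SD, n = 3). This is a description without a test, and the part that a lower share of cardiomyocyte RNA has in the falls was not tested.

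**Figure D3:**
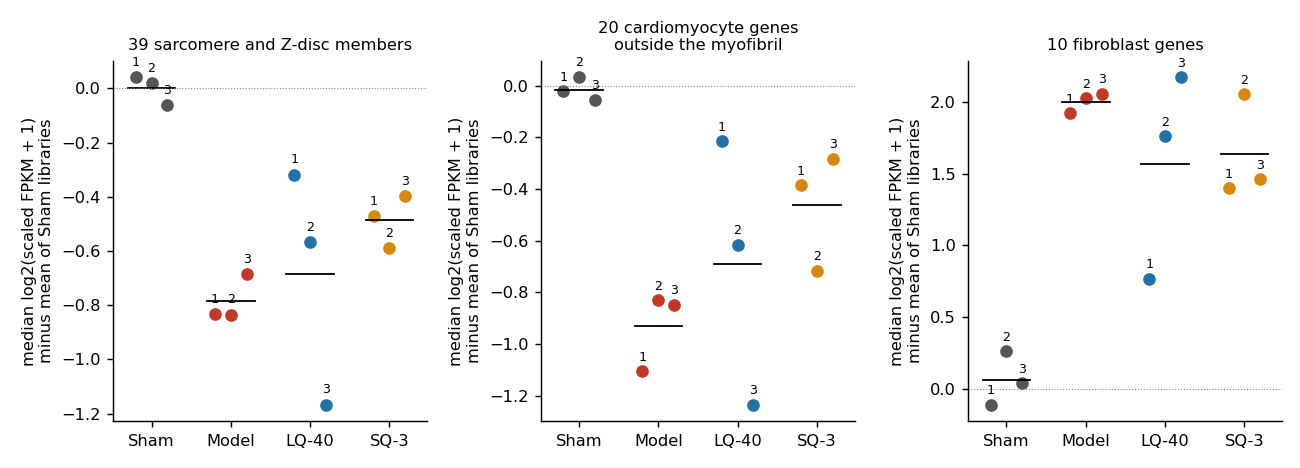
Median log2(scaled FPKM + 1) of 3 gene lists in each library, minus the mean of the Sham libraries; numbers are replicates and lines are group means. The members and the 20 cardiomyocyte genes lie low in Model libraries where the 10 fibroblast genes lie high, and LQ-40 replicates 1 and 3 stand at opposite ends of their group in all 3 panels.

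No member passed the test in LQ-40 against Model hearts, where 0.669% of all genes were called. The median log2 change over the members was 0.05 (0.01 over all genes), 25 estimates were above 0 and 14 below. At an unadjusted p under 0.05 there were 3 members, all lower in LQ-40, against 12.1% of all genes. The count by limma-voom was 0 as well. LQ-40 and Model libraries did not overlap for 2 members, both lower in LQ-40, as for 10.8% of all genes. Vcl measured 13.4, 13.0 and 13.3 scaled FPKM in LQ-40 libraries, all below the Model values given above (log2 -0.29, 95% interval -0.51 to -0.08, adjusted p = 0.256). Pdlim1 measured 14.3, 14.6 and 17.0, also without overlap (log2 -0.30, adjusted p = 0.309). Synpo2l measured 24.6, 40.7 and 44.4, overlapping the low Model replicate 2 (log2 -0.77, adjusted p = 0.405). Pdlim3 measured 4.39, 12.6 and 11.3, so that LQ-40 replicate 1 stood close to the Sham level and the others close to or within the Model range (log2 -0.61, interval -1.34 to 0.12, adjusted p = 0.512).

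By the median of the members, the 3 LQ-40 libraries lay farther apart than those of any other group. Replicate 1 was the highest of the group for 31 members and replicate 3 the lowest for 35. The median position of the members, in log2 units from the Sham mean, was -0.32, -0.57 and -1.17 in LQ-40 replicates 1 to 3, against -0.83, -0.83 and -0.69 in Model and -0.47, -0.59 and -0.40 in SQ-3 libraries. Of the 39 members, 29 were above every Model library in LQ-40 replicate 1, 14 in replicate 2 and 0 in replicate 3, against 35.8%, 29.7% and 29.8% of all genes tested. Below every Model library were 4, 4 and 31 members, against 38.9%, 28.4% and 32.4% of all genes. Tnni3 shows the pattern, with 1280.3, 765 and 543 in LQ-40 libraries. Cardiomyocyte genes outside the myofibril stood at -0.21, -0.62 and -1.23 in the same 3 libraries and fibroblast genes at 0.77, 1.76 and 2.17. The part of these differences in cell makeup in the members' spread was not tested. Without LQ-40 replicate 3 the median change against Model was 0.27, and without replicate 1 it was -0.12, with 0 calls either way.

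SQ-3 against Model hearts also gave no called member, where 0.346% of all genes were called. Here 32 estimates were above 0 and 7 below, with a median log2 change of 0.26 (-0.01 over all genes). All SQ-3 libraries were above all Model libraries for 12 members, or below for 1, while over all genes 12.1% were above and 14.3% below. At an unadjusted p under 0.05 there were 3 members, 2 higher and 1 lower, against 14.2% of all genes, and limma-voom called 0. Smyd1 measured 108, 94.0 and 134 scaled FPKM in SQ-3 libraries, above the Model values of 65.8 to 73.0 (log2 0.66, 95% interval 0.09 to 1.24, adjusted p = 0.301). Tnnc1 measured 1262, 1384 and 1488 (log2 0.52, adjusted p = 0.331) and Tnni3 961, 959.7 and 1189.9 (log2 0.58, adjusted p = 0.386), each above every Model library and below every Sham library. Vcl measured 13.9, 12.9 and 15.1, below every Model library (log2 -0.23, adjusted p = 0.334). Taken singly, SQ-3 replicates 1 to 3 were above every Model library for 24, 20 and 28 of the 39 members, against 31.2%, 32.5% and 32.4% of all genes, and below for 5, 4 and 4, against 35.3%, 31.9% and 36.3%.

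Outside the members, Tcap was called in both compound groups against Model hearts, which share the Model libraries. It measured 1473, 887 and 557 scaled FPKM in LQ-40 libraries (log2 2.01, SE 0.35, adjusted p = 0.0258) and 872, 853 and 1178 in SQ-3 libraries (log2 2.10, SE 0.35, adjusted p = 0.0346). All 6 of these libraries lay above the Model values and below the Sham values given above. The call for LQ-40 ended without LQ-40 replicate 1 or 2, Model replicate 1 or 3, or SQ-3 replicate 1 (adjusted p up to 0.144), and that for SQ-3 without LQ-40 replicate 2 or any library of the Model, SQ-3 or Sham groups (up to 0.166). Both ended with the replicate block (0.0516 and 0.0582) and with no filter on low values (0.103 and 0.126). The Tcap call for LQ-40 also ended within the 2 groups alone (0.219). Xirp1 was called lower in LQ-40 hearts (log2 -0.93, adjusted p = 0.0367), a call that ended whichever library other than Model replicate 2 was left out (adjusted p 0.0537 to 0.166). That call also ended with the replicate block (0.0582), with no filter (0.0737) and within the 2 groups alone (0.263).

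LQ-40 and SQ-3 hearts were compared directly as 1 pair of compounds, whose doses and times are not stated in the labels used here. No member passed the test (0.0% of the 13000 genes were called), 0 passed at an unadjusted p under 0.05 where 394 genes (3.03%) did, and limma-voom called 0. All 39 estimates were lower in LQ-40, with a median log2 difference of -0.20 and a range of -0.51 to -0.01. The lowest p were for Myom2 (LQ-40 63.3, 64.6 and 58.5, SQ-3 77.8, 85.1 and 67.3 scaled FPKM; log2 -0.29, 95% interval -0.62 to 0.03) and Fhl2 (LQ-40 785, 477 and 288, SQ-3 679.5, 596 and 773; log2 -0.51, interval -1.19 to 0.17). Libraries did not overlap for 2 members, Myom2 and Nrap, both lower in LQ-40, as for 2.5% of all genes, while Fhl2 in LQ-40 replicate 1 exceeded every SQ-3 library. For Cap2 the log2 difference was -0.27 (-0.64 to 0.11) and for Unc45b -0.36 (-0.86 to 0.14). The adjusted p was 0.9995 for each of these 4, and the intervals of the members reached from -1.19 to 0.60, and differences between the compounds within those limits could not be resolved here. Without LQ-40 replicate 3 the median difference was -0.01, and without LQ-40 replicate 1 it was -0.37.

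Against Sham hearts, LQ-40 hearts had 17 lower members and no higher one, where 15.8% of all genes were called and 5.93% called lower. The median log2 change was -0.69 over the members and 0.02 over all genes, and the members' median was -0.45 without LQ-40 replicate 3 and -0.87 without replicate 1. The 8 with the smallest p were Unc45b (log2 -1.06, adjusted p = 0.0175), Cap2 (-0.75, 0.0212), Trim63 (-1.06, 0.0212), Ttn (-0.75, 0.0246), Nexn (-0.66, 0.0252), Fhl2 (-1.26, 0.0257), Tnnc1 (-0.88, 0.0291) and Tnni3 (-1.14, 0.0301). Unc45b measured 36.2, 27.3 and 16.9 and Trim63 47.2, 27.9 and 25.6 in LQ-40 libraries, all under the Sham values. Pdlim3, which rose in Model hearts, just missed the threshold (log2 1.08, adjusted p = 0.0502). None of the 17 calls was kept in every alternative: the count was 32 without LQ-40 replicate 1 and 1 or 2 without LQ-40 replicate 2 or 3, 0 without Sham replicate 1 or 2, 5 without Sham replicate 3, and 8 with the replicate block, 7 of the 17 together with Mylk3.

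SQ-3 hearts had 1 lower member against Sham hearts, where 6.68% of all genes were called and 1.82% called lower. That member was Ttn, which measured 16.8, 12.8 and 14.2 scaled FPKM in SQ-3 libraries, under the Sham range of 21.5 to 27.1 (log2 -0.70, SE 0.18, adjusted p = 0.0443). The median log2 change was -0.48, and 27 members were below every Sham library in all 3 SQ-3 libraries and 2 above, where 16.4% and 20.2% of all genes were. Lmod2 (log2 -0.77, adjusted p = 0.0501) and Pdlim3 (1.21, 0.0536) came next. Pdlim3 measured 7.21, 15.4 and 7.87, with replicate 2 above every Model library and the others between the groups. The Ttn call ended without any library of the Sham, Model or SQ-3 groups (adjusted p 0.0585 to 0.141) and with limma-voom (0.0647), and the count was 11 without LQ-40 replicate 1 and 9 without LQ-40 replicate 3. The 3 comparisons with Sham share the Sham libraries.

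**Figure D4:**
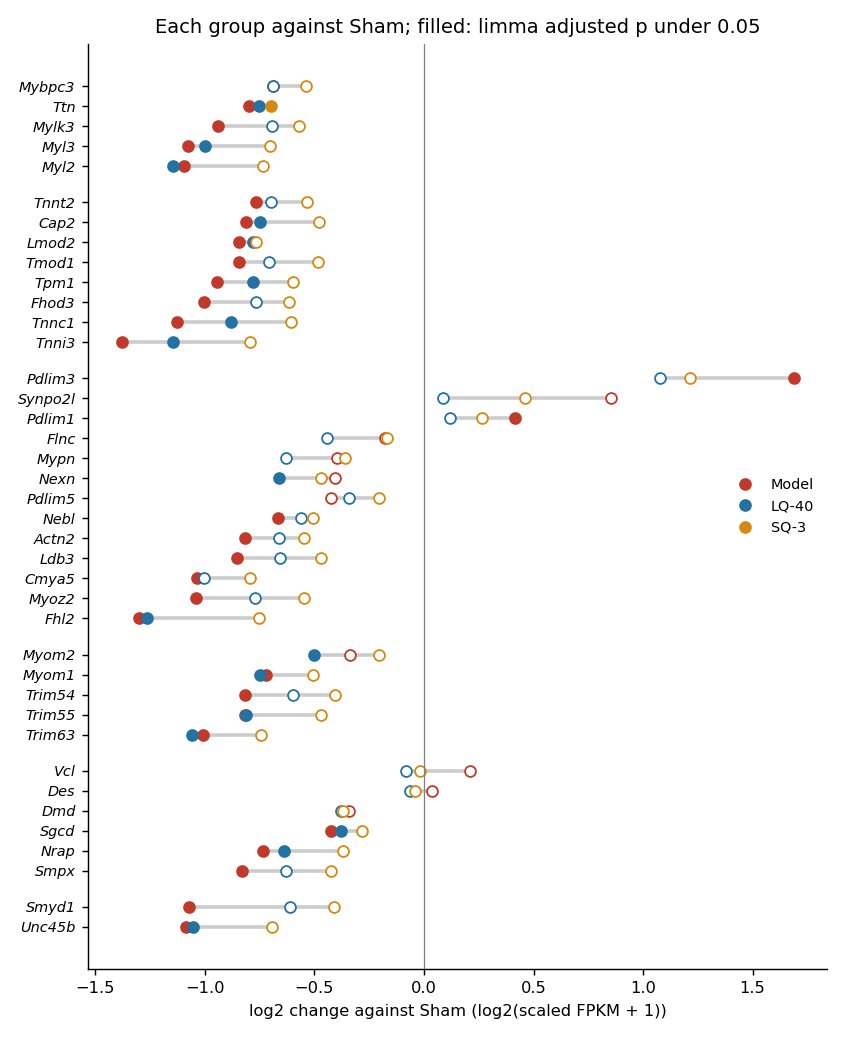
Log2 change of each member in Model, LQ-40 and SQ-3 hearts against Sham hearts, on the log2(scaled FPKM + 1) scale, grouped by role; filled points passed the limma test at an adjusted p under 0.05. The groups share the Sham libraries, most members lie below 0 in all 3, and Pdlim3 lies highest in each.

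The series also holds 2 libraries of rat primary cells, 1 from 2D and 1 from 3D culture, so no test was made. Both labels list cardiomyocytes, cardiac fibroblasts and macrophages, and only the 3D label names a co-culture. Of the 38 members with a row there (Ttn had none), 18 reached 1 scaled FPKM in either library, 14 of them lower and 4 higher in 3D (median log2 ratio -0.34, against 0.00 over 13407 genes), and 20 did not. Myl2, Lmod2 and Smpx had 0 reads in both libraries, while Fhl2 stood at 168 in 2D and 189 in 3D and Tpm1 at 141 and 169. Of the 20 cardiomyocyte genes outside the myofibril, 10 stayed under 1 FPKM in both libraries, although the label names cardiomyocytes.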

How the data were processed

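Messenger RNA from mouse hearts (4 groups of 3 libraries, by sample title) was captured with poly-T beads, per the labels' protocols. The submitters' processing notes list fastp, HISAT2 (2.0.5) and featureCounts (1.5.0-p3) with the builds mm10 and Rnor_6.0. Neither the strand setting, the annotation release nor the role of each tool is stated there. The authors deposited FPKM values with gene lengths and coordinates. FPKM times length gave whole reads (tolerance 0.02 of a read), and 1 read in 1 kilobase was worth 0.0566 to 0.0805 FPKM. The deposited values were not plain shares of these reads. Their divisor was 0.828 (Sham replicate 1) to 1.16 (LQ-40 replicate 3) times the reads in genes. Results from FPKM as deposited are therefore not results without any scaling.

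Scaled FPKM are these values after division by each library's median-of-ratios factor (0.979 to 1.03, from 10422 genes). Genes reaching 1 FPKM in 3 or more libraries were tested (13000) on the log2 scale after adding 1. The tool was limma 3.58.1 (R 4.3.3), used as a trended empirical Bayes fit over all 12 libraries (10.9 degrees of freedom). Tests were two-sided, p-values were Benjamini-Hochberg adjusted over the 13000 genes, and calls were made under 0.05. Every adjusted p comes from limma. Because 1 was added, log2 and fold changes understate those of low genes and differ from ratios of means. Means are given with SD. The fit was also run on simulated data in which few genes changed, in Model only, and all genes had the same dispersion. That setting is simpler than these libraries, so it cannot show how the scaling behaves here.

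The members and lists were chosen with earlier results of these data known. The naming rule gave full values for up to 4 members per role by smallest p and every member that rose, and for the other comparisons the called members (8 at most) or the 4 with the smallest p; of genes outside the list up to 4 per direction were named, except 1 that is not reported here. Synpo2l, Des, Vcl, Pdlim5, Myom2 and Nexn were described as members that did not pass. Each result was recomputed on limma-voom from recovered reads, with a replicate block, without each library in turn and within the 2 groups alone. Further alternatives used quantile normalization, FPKM as deposited, or 0.1 added in place of 1. In others the filter was dropped or raised to a mean of 5 FPKM. Figures were drawn with matplotlib 3.10.9.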

Additional observations from a re-analysis of the deposited data

How the results depend on the processing

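For Model against Sham the count of 30 members stayed within 1.5 times under all alternatives but 1 (19 to 32 when 1 library was left out, 19 without Model replicate 1), and the median change of -0.82 became -0.51 with quantile normalization (-0.84 to -0.77 leaving out 1 library). No call reversed. The estimate for Des, which was not called, turned from 0.04 to -0.0109 with FPKM as deposited, and lay between -0.0826 (without Model replicate 3) and 0.235 (without Model replicate 2) leaving out 1 library, with -0.0365 without Model replicate 1 and -0.0762 without Sham replicate 1. Medians also moved with quantile normalization for SQ-3 against Model (0.26 to 0.16) and SQ-3 against Sham (-0.48 to -0.28), and that of LQ-40 against Sham was -0.44. Of the 30 Model against Sham calls, 11 had a log2 change over 1.5 times smaller with quantile normalization. The cause was not tested. The count of 17 for LQ-40 against Sham became 2 with no filter, 0 with only the 2 groups, 9 with quantile normalization and 8 with the replicate block, and ranged from 0 to 32 leaving out 1 library. The count of 1 for SQ-3 against Sham became 2 with FPKM as deposited, 3 with a mean of at least 5 FPKM, 3 with a pseudocount of 0.1, 7 with only the 2 groups, and 0 with no filter, quantile normalization or the replicate block, and ranged from 0 to 11. With limma-voom that count was 1, but the member called was Lmod2 and not Ttn. Counts of 0 for the 3 other comparisons were 0 under every alternative.

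Replicate numbers are shared between groups, but same-numbered libraries deviated with correlations of -0.27 to 0.22 over 18 pairs, 3 of them above 0.1, so they were not treated as pairs. With the replicate block, Model against Sham had 28 called members (30 without), and the calls of Actn2 and Mybpc3 ended. With 3 libraries a group, differences inside the intervals given could not be resolved. Where leaving out a library left 2 in a group the spread was taken from all groups.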

Other observations

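Some ratios between members within a library also differed between groups. These pairs were chosen after their values were seen and have no test. Pdlim3 stood at 0.0318 ± 0.0053 of the level of its relative Pdlim5 in Sham hearts and at 0.165 ± 0.031 in Model hearts, while SQ-3 hearts gave 0.0997 ± 0.0285 and LQ-40 hearts 0.108 ± 0.054 (SD over 3 libraries). Desmin, Des, stood at 0.733 to 0.920 of the level of alpha-actinin, Actn2, in Sham libraries and at 1.22 to 1.74 in Model libraries, and LQ-40 and SQ-3 libraries spanned 0.872 to 1.55 and 0.898 to 1.46. Synpo2l stood at 0.0632 ± 0.0130 of Actn2 in Sham and 0.209 ± 0.066 in Model hearts. For these 3 ratios no Sham library reached the lowest Model library. The light chains Myl2 and Myl3 had ratios of 1.13 ± 0.10 (Sham), 1.11 ± 0.10 (Model), 1.10 ± 0.15 (SQ-3) and 1.02 ± 0.04 (LQ-40), and the Model and Sham libraries overlapped.

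In the rat cell libraries, each a single library without a test, the ubiquitin ligase Trim55 was among the most abundant members at 130.3 scaled FPKM in 2D and 80.5 in 3D, where the sarcomeric Actn2 stood at 0.273 and 0.288 and Myl3 at 0.491 and 0.665. Trim63 stood at 15.7 in 2D and 5.74 in 3D (402 and 127 reads), and Synpo2l at 2.87 and 0.613 (114 and 21 reads).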
